A study of Rattus norvegicus with 20 samples.

Results

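Proton pump and lysosomal cathepsin genes were followed in the blood of rats with reflux esophagitis, an inflammation of the esophagus caused by stomach contents that flow back into it. Members were the genes whose name in the scanner files began with Atp6v, Atp6ap, Cts and a letter, or Lamp and a number, together with Atp4a, Atp4b, Atp12a, Tfeb and Mcoln1. This gave 53 genes on 58 probes, of 30367 probes on the array. Each gene was read from its brightest probe. A probe was tested if it was well above background on at least 4 of the 20 arrays, which 35 of the 53 members passed, of 15260 genes tested in all.

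The animals were Wistar rats in 5 groups of 4, and the blood of each animal was hybridised to an Agilent array of its own. The sham group had an operation without esophagitis. In the other 4 groups esophagitis was induced by surgery. Of these, the untreated group received no drug, the omeprazole group received 30 mg/kg, and the STW5 groups received 0.5 or 2 ml/kg of this liquid mixture of medicinal plant extracts. Drugs were given for 7 days before surgery and for 10 days after it. The RNA came from whole blood, so it mixes the transcripts of all blood cells: fewer cells of a type and less RNA per cell cannot be told apart. Blood cell markers were present, with all 8 listed monocyte, all 8 T cell and 9 of 10 neutrophil markers above background. Of the 6 parietal cell marker names listed, 5 were on the array, and of these only Atp4a passed the filter.

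The vacuolar proton pump (V-ATPase) acidifies lysosomes and endosomes. Its V1 part in the cytosol splits ATP, and its V0 part in the membrane carries the protons. Cathepsins are the proteases that work in this acid compartment, LAMP proteins line its membrane, TRPML1 (Mcoln1) releases calcium from it, and TFEB is a transcription factor that switches on many lysosomal genes. The P-type pump of the stomach, H+/K+-ATPase, is a different enzyme. Its catalytic subunit is encoded by Atp4a, its accessory subunit by Atp4b, and it is the target of omeprazole in parietal cells. Atp12a encodes a related pump of the colon and other epithelia.

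The probes for the gastric pump are shown because those for Atp4a differed in whether the gene was detected above background. The array carried a pair of Atp4a probes on the plus strand of chromosome 1 of build rn4, at chr1:85757289-85757348 (upstream) and chr1:85768945-85769004 (downstream), with their starts 11656 bases apart. The Atp4b probe lay at chr16:81008937-81008996. Sequences are 5′ to 3′ as the scanner files give them, with no base marked.
Atp4a upstream probe: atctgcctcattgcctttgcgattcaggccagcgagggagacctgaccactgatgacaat
Atp4a downstream probe: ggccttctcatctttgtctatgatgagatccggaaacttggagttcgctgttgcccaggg
Atp4b probe: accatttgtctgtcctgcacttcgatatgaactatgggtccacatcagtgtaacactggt

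The upstream Atp4a probe was well above background on 20 of 20 arrays and the downstream probe on 0. The Atp4b and Atp12a probes were also well above background on 0 arrays. Under the brightest-probe rule the values for Atp4a come from the upstream probe alone, and they are not backed by the other probe or by the partner subunit. No probe of another gene on the array matched the upstream sequence over at least 30 bases at 80% identity or more.

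Levels below are log2 of the processed signal minus log2 of the 75th percentile of the array, so a level of 0 is the 75th percentile. They compare arrays for 1 gene and not genes with each other. That percentile ranged from 71.3 to 308 signal units, and 43.1% to 57.4% of all probes were well above background. Sham and untreated arrays lay on slide 1, both STW5 doses on slide 2 and omeprazole on slide 3. Comparisons of a drug with untreated, or of omeprazole with STW5, thus run between slides, and there the effects of slide and drug cannot be told apart. The STW5 doses are those in the sample titles, which other labels contradict. Untreated array 1 stood apart from its group: its mean correlation across genes was 0.984 with the sham arrays and 0.920 with the other untreated arrays. Changes of the members named below are therefore also given without that array. Because it resembles sham, leaving it out tends to widen differences between untreated and sham. Genes called there by limma rose from 1 to 1831, so passing without it is not separate support for a change. The cause was not tested.

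Of the 35 members tested, 0 passed an adjusted p of 0.05 by limma in any of 7 comparisons. At an unadjusted p under 0.05 there were 7 members for untreated against sham, 2 for omeprazole against untreated, 3 for the mean of both STW5 doses against untreated and 0 for omeprazole against that mean. With weights for the quality of arrays, 19 members and 6008 genes passed for untreated against sham by limma's default method, which stopped before it converged, and 1 member and 433 genes by its gene-by-gene method. A missed threshold does not show that levels were alike. The median standard error of a member's log2 change between groups of 4 was 0.33.

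**Figure D1:**
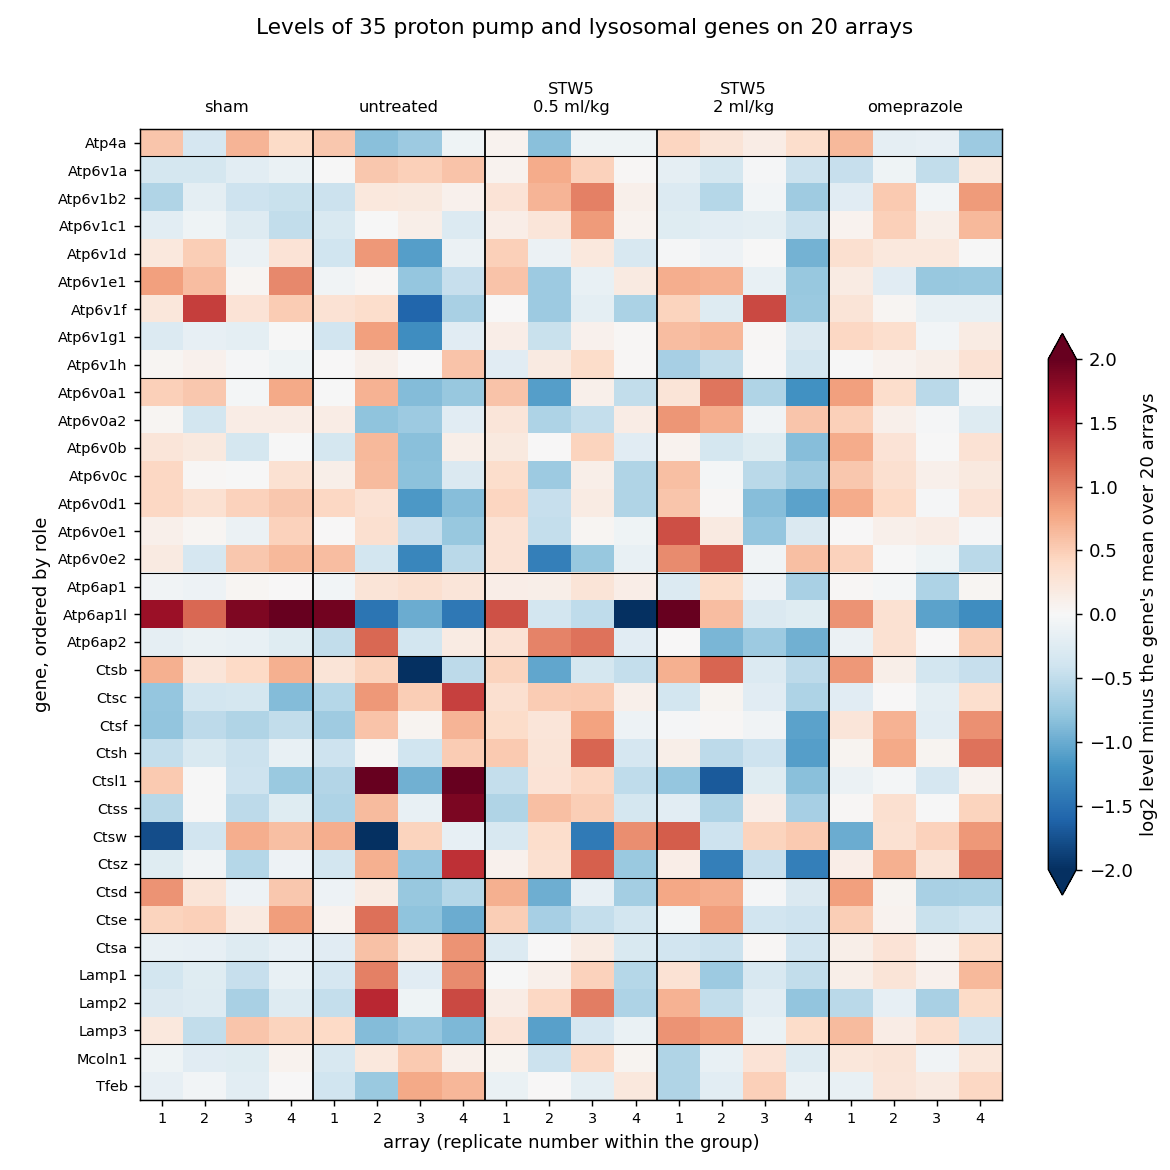
Level of each of the 35 members tested (rows, ordered by role) on the 20 arrays (columns, by group), as log2 level minus the mean of the gene over all arrays, with the colour scale ending at 2 in each direction. Untreated array 1 looks like the sham arrays, and untreated arrays 2 and 4 are high for Ctsl1, Ctsc, Lamp1 and Lamp2.

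Atp4a was measured at -0.44, -1.33, -0.33 and -0.62 in sham animals. In untreated animals the levels were -0.46, -1.83, -1.73 and -1.08. Omeprazole animals gave -0.34, -1.18, -1.16 and -1.72. The 3 groups overlapped, and each held at least 1 array above -0.50. The change was -0.60 ± 0.33 (SE, 4 arrays per group, adjusted p = 0.301 by limma) for untreated against sham. For omeprazole against untreated it was 0.18 ± 0.33 (adjusted p = 0.817), with a 95% interval from -0.51 to 0.87. These changes were -0.87 and 0.45 without untreated array 1. Without omeprazole array 1 the change for omeprazole was -0.08 and without untreated array 2 or 3 it was -0.01 or 0.025, so its direction rested on single arrays. The STW5 groups gave -0.93, -1.83, -1.08 and -1.08 at 0.5 ml/kg and -0.57, -0.74, -0.85 and -0.65 at 2 ml/kg.

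Tfeb, the lysosomal transcription factor, ranged from -0.97 to -0.76 in sham and was spread more widely in untreated animals, at -1.16, -1.50, -0.01 and -0.10. Untreated arrays 3 and 4 lay above all sham arrays and arrays 1 and 2 below them. Its change was 0.18 ± 0.30 (adjusted p = 0.722 by limma), and it turned to -0.05 without untreated array 3 and -0.02 without array 4, and was 0.33 without array 1. Omeprazole gave -0.92, -0.53, -0.58 and -0.36, a change from untreated of 0.09 ± 0.30 that became -0.06 without untreated array 1 and -0.18 without array 2. Mcoln1, the calcium channel TRPML1, measured -0.85, -0.99, -1.0 and -0.70 in sham and -1.09, -0.54, -0.23 and -0.66 in untreated animals, a change of 0.26 ± 0.23 (adjusted p = 0.493) that was 0.41 without untreated array 1 and 0.12 without array 3. Omeprazole differed from untreated by 0.03 ± 0.23, which turned to -0.13 without untreated array 1 and -0.01 without omeprazole array 2.

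**Figure D2:**
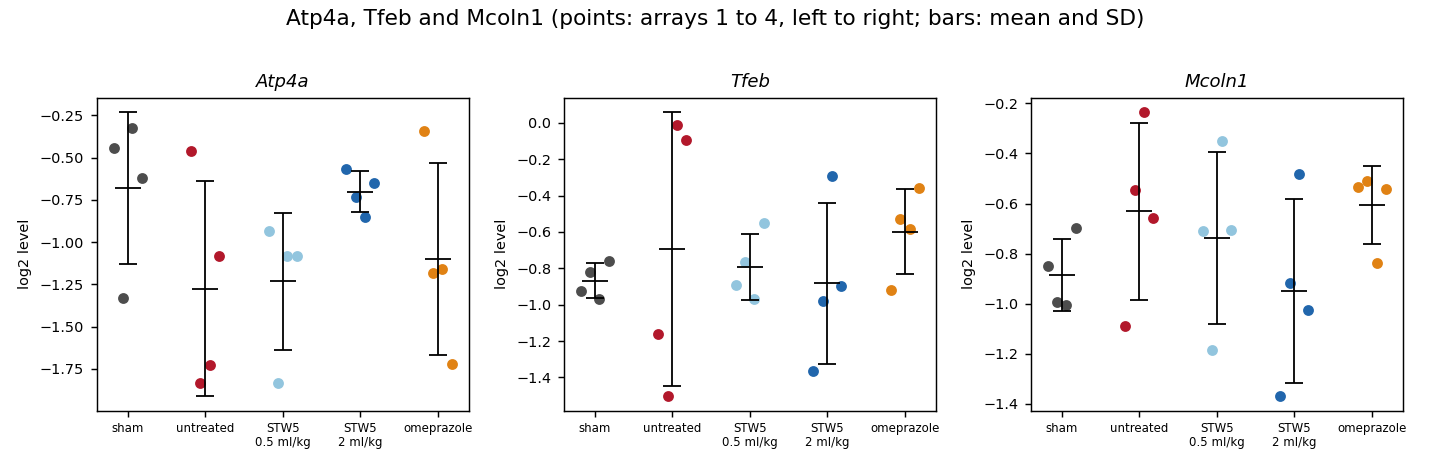
Log2 level (vertical axis) of Atp4a, Tfeb and Mcoln1 in the 5 groups, with 1 point per array in replicate order and bars for mean and SD of 4 arrays. Sham, untreated and omeprazole overlap for each gene, the STW5 doses do not overlap for Atp4a, and Tfeb in untreated animals runs from -1.50 to -0.01.

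Untreated esophagitis was compared with sham to see how disease bears on these genes. No member passed the threshold (smallest adjusted p 0.243 by limma, with 0.00655% of all genes called). Of the 8 cysteine cathepsins tested 6 measured above sham, as did Ctsa, the 1 serine cathepsin tested, Lamp1 and Lamp2. All 7 V0 subunits, both aspartic cathepsins, Ctsb, Ctsw and Lamp3 measured below it. The 7 members under an unadjusted p of 0.05, 5 higher and 2 lower, compare with 18.3% of all genes. The median member change was -0.07, and the median of all genes was -0.19. In 2 members the groups did not overlap, against 3.05% of all genes.

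Ctsc encodes the dipeptidyl peptidase that activates serine proteases of neutrophils and cytotoxic cells. Its levels were 0.31, 0.71, 0.73 and 0.21 in sham and 0.52, 1.95, 1.57 and 2.44 in untreated animals. Untreated arrays 2 to 4 lay above every sham array, and array 1 lay within the sham range. The change was 1.13 ± 0.31, a 2.18-fold difference (unadjusted p = 0.0016, adjusted p = 0.243 by limma). Without untreated array 1 it was 1.49 and passed (adjusted p = 0.00356). Over all single arrays left out the change was at least 0.85, with an adjusted p up to 0.463 by limma.

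Ctsa, the serine carboxypeptidase that also protects other lysosomal enzymes, was very even in sham, at 4.99, 4.99, 4.89 and 4.99. Untreated animals gave 4.93, 5.73, 5.39 and 6.04, again with array 1 in the sham range. Its change was 0.56 ± 0.22 (adjusted p = 0.252 by limma). Ctsf, another cysteine cathepsin, measured 0.92, 1.19, 1.10 and 1.21 in sham and 0.99, 2.27, 1.77 and 2.39 in untreated animals, a change of 0.75 ± 0.33 (adjusted p = 0.263). Without untreated array 1 both passed, Ctsa at 0.75 (adjusted p = 0.0343) and Ctsf at 1.04 (adjusted p = 0.043). Other single arrays left out took Ctsa down to 0.38 and Ctsf to 0.57, with adjusted p up to 0.463 and 0.466 by limma. In the fit without untreated array 1, 4 of 35 members were called, Ctsc, Ctsa, Ctsf and Atp6v1a, and 12% of all genes were.

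Ctsl1, cathepsin L (current symbol Ctsl), split the untreated animals. They measured -0.86, 3.44, -1.25 and 2.44, against 0.24, -0.29, -0.70 and -1.01 in sham. Arrays 2 and 4 lay far above sham and array 3 below it, so the change of 1.38 had a standard error of 0.72 (adjusted p = 0.288 by limma). It was 1.99 without untreated array 1 (adjusted p = 0.0628). Ctss, cathepsin S of antigen-presenting cells, was likewise highest on untreated arrays 4 (5.14) and 2 (3.88), with sham between 2.70 and 3.25, and its change was 0.76 ± 0.40, or 1.12 without untreated array 1. Ctsb, a cysteine cathepsin found in most cells, was lower by -0.99 ± 0.49 and reached 7.48 on untreated array 3, where sham spanned 9.81 to 10.28. Its change was -1.24 without untreated array 1.

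The aspartic cathepsins Ctsd and Ctse measured lower by -0.72 ± 0.39 and -0.64 ± 0.40 (adjusted p = 0.296 and 0.339 by limma), or -0.79 and -0.72 without untreated array 1. The serine protease Ctsg of neutrophil granules was well above background on 1 array and was not tested, nor was Ctsk, the cathepsin of osteoclasts, above background on 2. The 6 placental cathepsins (Ctsj, Ctsll3, Ctsm, Ctsq, Ctsql2, Ctsr) were not tested either: in 5 of them no array was well above background, and Ctsm reached it on 1.

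Among V1 subunits, Atp6v1a, the catalytic A subunit, measured -1.25, -1.25, -1.11 and -1.02 in sham and -0.91, -0.35, -0.41 and -0.33 in untreated animals. The groups did not overlap. The change was 0.66 ± 0.22 (adjusted p = 0.243 by limma), and without untreated array 1 it was 0.79 and passed (adjusted p = 0.0382). Over all single arrays left out it was at least 0.60, with an adjusted p up to 0.463 by limma. The second Atp6v1a probe was well above background on 1 array only. Atp6v1e1, a subunit of the peripheral stalk, did not overlap in the other direction. It measured -0.84, -1.05, -1.63 and -0.71 in sham and -1.74, -1.64, -2.44 and -2.13 in untreated animals, a change of -0.93 ± 0.35 (adjusted p = 0.247), or -1.01 without untreated array 1. Atp6v1f, a subunit of the central stalk, measured 3.44, 4.59, 3.49 and 3.73 in sham and 3.51, 3.57, 1.64 and 2.58 in untreated animals, a change of -0.99 ± 0.43 (adjusted p = 0.263). It was -0.60 without untreated array 3 and -1.22 without array 1. Of the 8 V1 subunits tested, 4 measured above and 4 below sham, with a median of 0.02.

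All 7 V0 subunits tested measured below sham, from -0.76 to -0.12 with a median of -0.40, and 0 had an unadjusted p under 0.05 in limma. The lowest was Atp6v0d1, which links V1 to V0, at -0.76 ± 0.38 (adjusted p = 0.277), or -1.01 without untreated array 1. Atp6v0a4, Atp6v0d2 and the V1 genes Atp6v1b1 and Atp6v1g3, forms known from kidney or osteoclasts, were well above background on 0 arrays. Among the accessory genes, Atp6ap1l, a relative of the assembly factor Atp6ap1, measured 3.23, 2.67, 3.38 and 3.55 in sham. Untreated arrays 2 to 4 gave 0.06, 0.53 and 0.09, and array 1 gave 3.45. Its change of -2.17 had a standard error of 1.21 (adjusted p = 0.303 by limma), and it was -2.98 without array 1 (adjusted p = 0.0946). That standard error pools the spread of all groups. The SD was 0.38 in sham, 1.62 in untreated and 3.57 in the group labelled 0.5 ml/kg, which is outside this comparison. There array 4 measured -5.30, and the gene was well above background on only 3 arrays. The standard error and adjusted p thus reflect more than the spread of sham and untreated animals.

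The lysosomal membrane gene Lamp2 measured -0.71, -0.69, -1.08 and -0.68 in sham and -0.90, 1.08, -0.52 and 0.89 in untreated animals. Arrays 2 to 4 stood above every sham array, arrays 2 and 4 by the most, and the change was 0.93 ± 0.43 (adjusted p = 0.271 by limma). It was 0.62 without untreated array 2 and 1.28 without array 1 (adjusted p = 0.0552). Lamp1 was also high on untreated arrays 2 and 4, at 2.78 and 2.72, against a sham range of 1.32 to 1.62. Its change was 0.65 ± 0.31 (adjusted p = 0.274 by limma), or 0.88 without untreated array 1. Lamp3, the form of mature dendritic cells, lay below sham on untreated arrays 2 to 4 (-2.84, -2.75 and -2.87, with a sham range of -2.47 to -1.42). Its change was -0.71 ± 0.36, or -1.02 without array 1 (adjusted p = 0.0556 by limma).

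**Figure D3:**
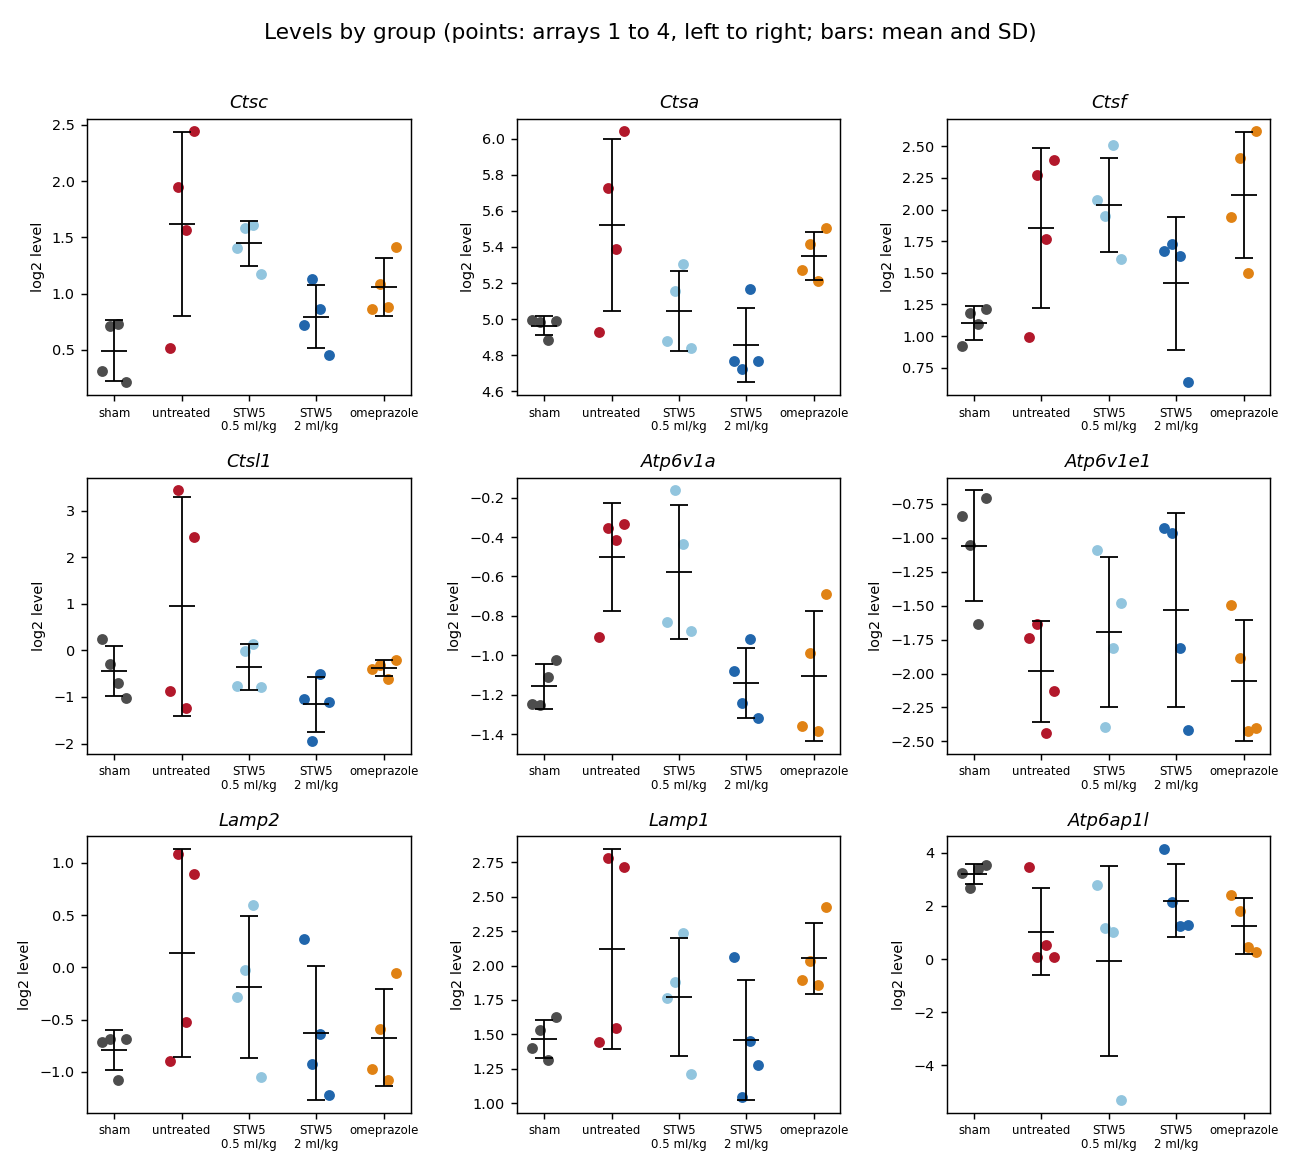
Log2 level (vertical axis) of 9 members in the 5 groups, with 1 point per array in replicate order and bars for mean and SD of 4 arrays. Untreated array 1, the leftmost untreated point, lies in or close to the sham range for Ctsc, Ctsa, Ctsf, Lamp1, Lamp2 and Atp6ap1l.

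Omeprazole was compared with untreated esophagitis. The V0 subunits measured above untreated and Atp6v1a below, and 0 members passed (smallest adjusted p 0.172 by limma), while 4.17% of all genes did. The 2 members with an unadjusted p under 0.05 compare with 15.5% of all genes. The median member change was 0.26 and the median of all genes 0.10. This comparison shares its untreated arrays with the one before it, so the values stand side by side and are not independent.

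Atp6v1a measured -1.36, -0.99, -1.38 and -0.69 under omeprazole, a change of -0.60 ± 0.22 (unadjusted p = 0.0134, adjusted p = 0.172 by limma). The groups overlapped at untreated array 1 (-0.91), and without it the change was -0.74 (adjusted p = 0.0538). Atp6v1c1, the C subunit that joins V1 to V0, measured 0.71, 1.11, 0.76 and 1.29 under omeprazole and 0.33, 0.63, 0.76 and 0.37 in untreated animals, a change of 0.44 ± 0.21 (adjusted p = 0.319), or 0.38 without untreated array 1. All 7 V0 subunits tested measured above untreated, from 0.28 to 0.67 with a median of 0.38. Of these, Atp6v0d1 had the largest change, 0.67 ± 0.38 (adjusted p = 0.402), or 0.92 without untreated array 1.

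Of the cathepsins, Ctsl1 was even under omeprazole, at -0.40, -0.31, -0.62 and -0.21. All 4 values lay between the low and the high untreated arrays, and its change was -1.33 ± 0.72 (adjusted p = 0.387 by limma), or -1.93 without untreated array 1. Ctsc measured 0.86, 1.08, 0.88 and 1.42, a change of -0.56 ± 0.31 (adjusted p = 0.391). Without untreated array 1, Ctsc at -0.93 (adjusted p = 0.029) was the 1 member of 35 called, and 7.64% of all genes were. Lamp2 measured -0.97, -0.59, -1.08 and -0.05, a change of -0.81 ± 0.43 (adjusted p = 0.377), or -1.16 without untreated array 1.

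**Figure D4:**
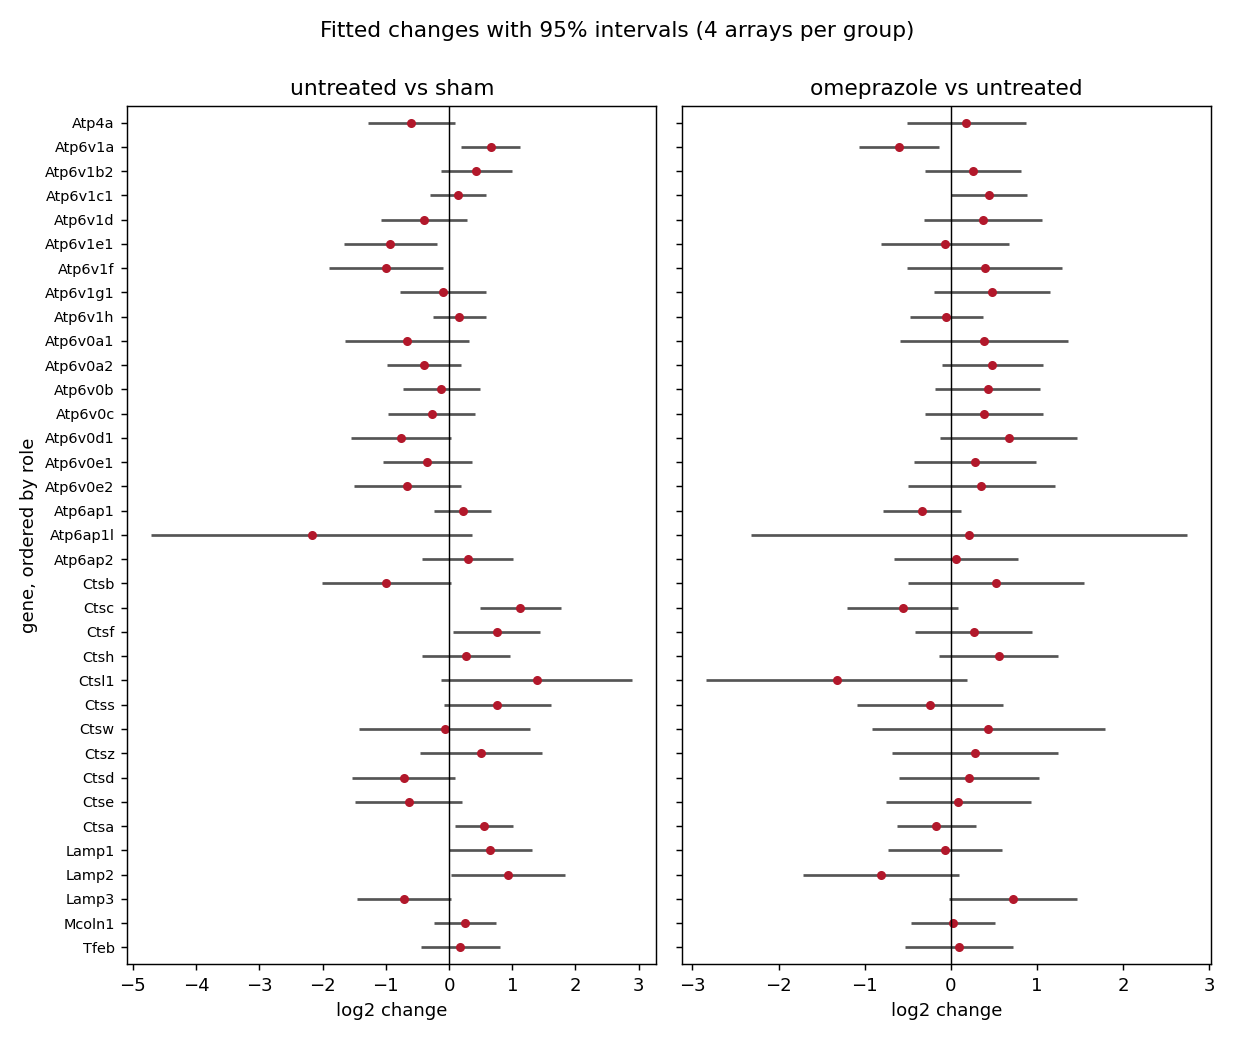
Fitted log2 change (horizontal axis) with its 95% interval for each of the 35 members (rows, ordered by role), for untreated against sham and omeprazole against untreated, with 4 arrays per group. Most intervals include 0, and all 7 V0 subunits lie below 0 on the left and above 0 on the right, where the untreated arrays are shared.

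STW5 at both doses was compared with the same untreated arrays. By limma 0 members passed for the mean of the doses (smallest adjusted p 0.485, and 0% of all genes passed), and the 3 with an unadjusted p under 0.05 compare with 9.53% of all genes. The change of Ctsa was -0.57 ± 0.19 (adjusted p = 0.485). Its levels were 4.88, 5.15, 5.30 and 4.84 at 0.5 ml/kg and 4.77, 4.72, 5.17 and 4.77 at 2 ml/kg, so all 8 lay below untreated arrays 2 to 4 and some below array 1. Ctsl1 measured -0.76, -0.01, 0.14 and -0.79 at 0.5 ml/kg and -1.05, -1.95, -0.52 and -1.11 at 2 ml/kg, a mean change of -1.70 ± 0.63 that was -0.87 without untreated array 2. Atp6v0a2, a V0 subunit, measured higher by 0.58 ± 0.24 (adjusted p = 0.49). Without untreated array 1 these changes were -0.77 for Ctsa, -2.30 for Ctsl1 and 0.76 for Atp6v0a2 (adjusted p from 0.0535 to 0.0912).

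For the dose labelled 2 ml/kg against untreated, 11 members had an unadjusted p under 0.05, 3 higher and 8 lower, against 23.7% of all genes (18.4% higher and 5.34% lower), and 0 passed by limma. Their median change was -0.15 and that of all genes 0.14. The smallest p values belonged to Atp6v0a2 (0.93 ± 0.28, adjusted p = 0.0993) and Ctsa (-0.66 ± 0.22, adjusted p = 0.109). Without untreated array 1, 8 members passed (20.2% of all genes), among them Atp6v0a2 at 1.11 (adjusted p = 0.0184) and Ctsa at -0.86 (adjusted p = 0.0173). For 0.5 ml/kg against untreated 1 member had an unadjusted p under 0.05, Ctsa at -0.47 ± 0.22 (adjusted p = 0.828), against 5.93% of all genes. That change was -0.30 without untreated array 4 and -0.67 without array 1.

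Both doses shared a slide, and their difference was tested directly. For 2 against 0.5 ml/kg, 11 members had an unadjusted p under 0.05 (3 higher, 8 lower), against 26.6% of all genes (19.7% higher and 6.93% lower), and 0 passed by limma. In 5 members the groups did not overlap, against 11% of all genes. Atp6v1b2, the B subunit of V1, measured 1.73, 2.13, 2.47 and 1.56 at 0.5 ml/kg and 1.18, 0.87, 1.40 and 0.74 at 2 ml/kg, a change of -0.92 ± 0.27 (adjusted p = 0.0814). Atp6ap2, the prorenin receptor, measured -0.67, 0.04, 0.14 and -1.18 at 0.5 ml/kg and -0.94, -1.86, -1.67 and -1.92 at 2 ml/kg, a change of -1.18 ± 0.34 (adjusted p = 0.0823). Which dose is which rests on conflicting labels, so the sign of these changes is that of the titles. Without array 3 of the 2 ml/kg group, Atp6v1b2 passed (adjusted p = 0.0468). That was the lowest value over single arrays left out, and the highest was 0.278 by limma. The share of all genes that passed in that fit is not set beside this call.

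Omeprazole against the mean of the STW5 doses gave 0 members with an adjusted p under 0.05 by limma (4.9% of all genes) and 0 with an unadjusted p under 0.05 (13.9% of all genes). The smallest belonged to Ctsa, at 0.40 ± 0.19 (unadjusted p = 0.0501, adjusted p = 0.359). Its omeprazole levels were 5.27, 5.42, 5.21 and 5.50.

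Blood cell markers moved with some of the members. A marker score is the mean, over the tested markers of a cell type, of level minus the mean of the gene over all arrays. Untreated arrays 2 and 4, high in Ctsl1 and Lamp2, had monocyte scores of 0.87 and 1.09, and sham arrays ranged from -0.54 to 0.00. Untreated array 2 also had the lowest T cell score (-2.78) and the highest neutrophil score (1.47), and its level of Ctsw, a cathepsin of T and NK cells, was the lowest of all 20 arrays at -2.47. Sham array 1 went the other way. Its Ctsw level was the next lowest (-2.14), but its T cell score was 0.19 and its NK and cytotoxic cell score 1.79. Untreated arrays 3 and 4 had the lowest erythroid scores, -1.77 and -1.30, with sham from 0.30 to 0.99.

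Within groups, in a limma model of group and score that was chosen after the data were seen, 5 members rose with the monocyte score at an adjusted p below 0.05: Lamp2 (slope 1.34 ± 0.22), Ctsz (1.35 ± 0.26), Lamp1 (0.91 ± 0.17), Ctss (1.2 ± 0.22) and Ctsl1 (1.91 ± 0.46). Of all genes 1.83% passed. The monocyte score includes Cd68, which is itself on the list of lysosomal membrane and transport genes. The score is thus not free of lysosomal genes, and slopes without Cd68 were not fitted. With the erythroid score 13 members rose and 2 fell, while of all genes 36.7% rose and 19.1% fell (55.8% passed). Ctsb rose by 0.90 ± 0.10 per unit of score, and so did 6 V0 genes by smaller slopes: Atp6v0a1, Atp6v0a2, Atp6v0c, Atp6v0d1, Atp6v0e1 and Atp6v0e2. With the neutrophil score 4 members rose, against 2.06% of all genes (5.06% passed in either direction). With the T cell score 1 rose and 6 fell, against 10.1% and 3.99% of all genes (14.1% passed). With the log2 signal of the array 5 members rose and 12 fell, against 12.3% and 34.3% of all genes (46.7% passed). Atp4a was among those that fell, with a slope of -0.70 ± 0.18 (adjusted p = 0.00437 by limma). It was also among those that rose with the erythroid score, by 0.37 ± 0.13 (adjusted p = 0.0233 by limma). In a joint model of erythroid score, neutrophil score and signal, 1 member rose with the erythroid score (3.77% of all genes passed), 4 with the neutrophil score (2.97%) and 0 changed with signal. The member that rose with the erythroid score was Atp6v1f (adjusted p = 0.0168 by limma). In that model neither Ctsb (adjusted p = 0.0746) nor any of the 6 V0 genes passed for the erythroid score. The part of cell makeup in the group differences was not tested.

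**Figure D5:**
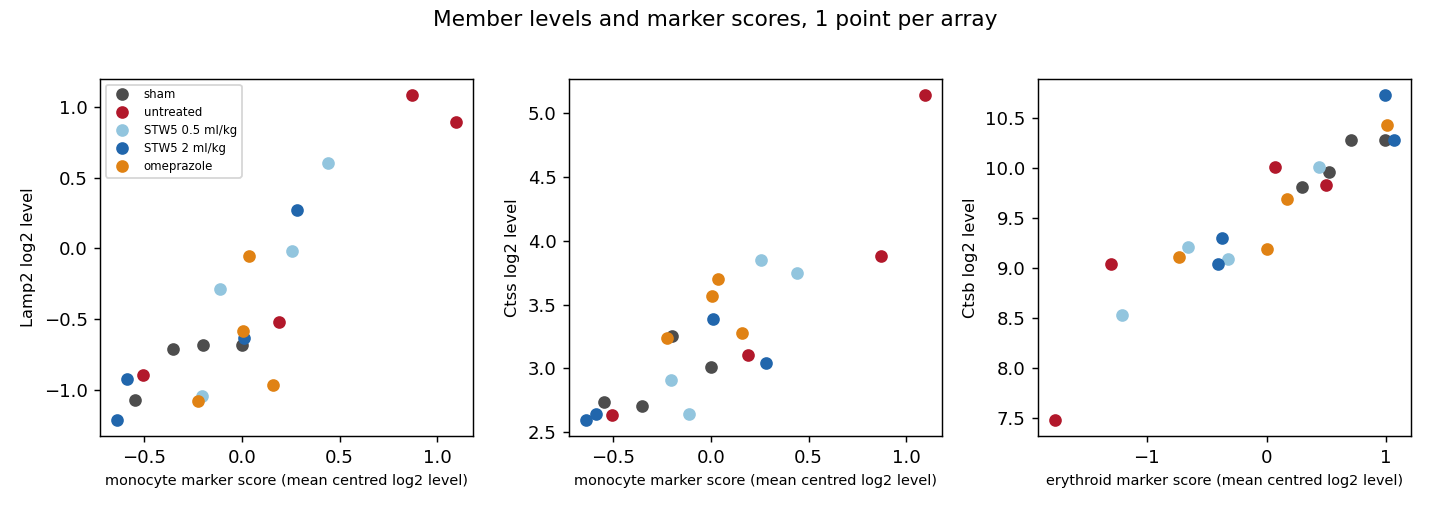
Log2 level of Lamp2 and Ctss against the monocyte marker score, and of Ctsb against the erythroid marker score, with 1 point per array coloured by group (20 arrays). Untreated arrays 2 and 4 are the points at the upper right of the Lamp2 plot, with monocyte scores of 0.87 and 1.09.

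Other lysosomal genes were counted from lists that held no member. Of 38 tested lysosomal hydrolases and their activators, 16 were higher and 0 lower in untreated than in sham animals at an unadjusted p under 0.05, against 8.14% of all genes higher, and 0 passed by limma. Their median change was 0.55. Arsa, which cleaves sulfatide, measured 1.5 ± 0.40 higher, and Hyal2, a hyaluronidase, 1.45 ± 0.44 (adjusted p = 0.243 for each). In omeprazole against untreated, 0 of the 38 were higher and 3 lower at that level, against 6.2% of all genes higher and 9.27% lower. For the mean of the STW5 doses 12 were lower and 0 higher, against 3.84% of all genes lower and 5.69% higher. The drug comparisons run between slides and share their untreated arrays with the comparison against sham. Their counts are thus not independent of the counts there. By the doses as labelled, which other labels contradict, 19 were lower and 1 higher at 2 ml/kg (5.34% of all genes lower) and 2 were lower at 0.5 ml/kg (3.53%). Between the doses 9 were lower at 2 ml/kg (6.93%), and 0 passed by limma in each. Of 28 lysosomal membrane and transport genes, 17 measured above and 11 below sham in untreated animals. At an unadjusted p under 0.05 by limma, 9 were higher and 2 lower, against 8.14% of all genes higher and 10.1% lower. Of 13 cathepsin inhibitors 8 measured above sham and 5 below, and at that level 1 was higher and 0 lower. It was Slpi, an inhibitor of neutrophil proteases, at 3.26 ± 0.89 (unadjusted p = 0.0016, adjusted p = 0.243 by limma). Of 23 genes listed for lysosome sorting, TFE factors and mTORC1 docking, 1 was higher and 4 lower at that level. Of 26 other proton and P-type pumps and pH regulators, 5 were higher and 2 lower. Among 11 further V-ATPase and assembly genes, 1 was higher and 1 lower. In omeprazole against the STW5 mean, 1 of the 26 passed by limma as lower, against 4.67% of all genes.

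The promoters are shown because TFEB is known to bind the CLEAR motif found at many lysosomal genes. The letters TCACGTGA, which read the same on both strands and contain the E-box CACGTG, were searched from 250 bases before to 50 after the gene start in RefSeq promoters of build GRCr8. The RefSeq set held 44 of the members, and 5 of them had the motif (11.4%), against 0.867% of 27457 promoters. The motif is known from lysosomal genes and the members were chosen by such names. These shares are therefore no result about the animals. Each stretch below is 60 bases on the strand of its gene, 5′ to 3′, with the motif in capitals: Mcoln1 at chr12:6358245-6358304 (plus), Ctsd at chr1:206968789-206968848 (minus), Lamp1 at chr16:83075086-83075145 (minus), Atp6v0d1 at chr19:50357258-50357317 (minus) and Atp6v0e1 at chr10:17007107-17007166 (minus).
Mcoln1: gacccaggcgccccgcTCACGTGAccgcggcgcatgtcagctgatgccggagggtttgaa
Ctsd: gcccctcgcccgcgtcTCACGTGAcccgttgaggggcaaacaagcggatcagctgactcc
Lamp1: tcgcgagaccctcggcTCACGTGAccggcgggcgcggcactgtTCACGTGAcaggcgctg
Atp6v0d1: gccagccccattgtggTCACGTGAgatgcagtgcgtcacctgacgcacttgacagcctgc
Atp6v0e1: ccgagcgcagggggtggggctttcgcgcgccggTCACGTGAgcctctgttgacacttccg

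These 5 genes did not share a direction in untreated against sham animals. Lamp1 (0.65 ± 0.31) and Mcoln1 (0.26 ± 0.23) measured higher, and Atp6v0d1 (-0.76 ± 0.38), Ctsd (-0.72 ± 0.39) and Atp6v0e1 (-0.34 ± 0.34) lower, all with an adjusted p above the threshold by limma. A match to these letters is a description of the window and not of binding.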

How the data were processed

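Per the file headers, the deposited scanner files hold spot intensity after background subtraction, with no normalization between arrays (Agilent Feature Extraction, version 10.7.3.1). The value table deposited by the authors gives each spot as a ratio to the array's typical signal and served as an alternative only. Its 8 STW5 columns follow the scanner files of the other dose, and the titles and the design text number the doses in opposite order. Titles were followed.

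Spots of a probe were averaged without outlier spots (337 to 484 per array), and log2 of the array's 75th percentile over 58717 non-control spots was subtracted from log2 of the intensity. A percentile over probe averages had been used at first, with 0 members passing under either. Groups were taken from the titles. All 20 arrays entered 1 linear model with a mean per group, using lmFit and eBayes of limma (version 3.58.1, R version 4.3.3, two-sided). Files were read with data.table (version 1.17.8). The Benjamini-Hochberg adjustment ran over 15260 genes, and adjusted p values in the text come from limma. The fit was tested on simulated data for untreated against sham (15260 genes): of 100 genes changed by 1 log2 unit it called 22, and of 100 changed by 2 units 76. The simulated noise was independent between genes and had the same spread in every group. In the data the mean centred level of the members varied more between untreated arrays (SD 0.34) than between sham arrays (SD 0.08). The simulated rates may therefore not hold for untreated against sham. The number of arrays limits the precision.

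The members, the lists and the roles were chosen with earlier results of these data known. Every member could be named, and values per array are given for Atp4a, Tfeb, Mcoln1 and members with the smallest p of each role. Some per-array values outside that rule (Ctsl1, Lamp1, Ctss, Ctsb, Ctsw, Lamp3, Atp6ap1l) were chosen after they were seen, as were the marker score models. The labels do not say what replicate numbers share, and 19 of 40 same-numbered pairs had r above 0.1. Of 10 pairs of groups, 1 had all 4 above 0.1, untreated with 2 ml/kg (r from 0.19 to 0.49), so a fit of those arrays with the number as a block was added. Alternatives covered background correction, scaling, filter, probe choice, replicate block, array weights, dose labels and leaving out each array. Probe, slide and promoter sequences came from the scanner files and RefSeq, and all 53 members matched a current symbol. Of the other lysosomal genes, 1 that the naming rule selects is not reported here, though it counts in its list.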

Additional observations from a re-analysis of the deposited data

Results flagged for a closer look

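Within groups of 4, the gap between the extreme array and its neighbour was compared with the range of the group by Dixon's test. Of 175 groups of 4 (35 members in 5 groups) 12 exceeded its 95% critical value for 4 arrays, where chance flags about 1 in 20. Untreated array 1 stood apart from the other untreated arrays for Atp6ap1l (3.45, nearest 0.53), Atp6v1a (-0.91, nearest -0.41) and Lamp3 (-1.57, nearest -2.75), all values in or near the sham range. Sham array 3 was low for Ctsa (4.89) and Lamp2 (-1.08). In the group labelled 2 ml/kg, array 4 was low for Atp6v1d (-2.41) and Ctsf (0.63), and array 3 high for Ctsa (5.17). In the group labelled 0.5 ml/kg, array 2 was low for Atp4a (-1.83) and array 3 high for Atp6ap1 (3.98). Omeprazole array 3 was low for Atp6ap1 (3.1) and Mcoln1 (-0.84).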

How the results depend on the processing

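Counts of members passing were 0 in each comparison as reported. With limma's default array weights they were 19 for untreated against sham, 14 for omeprazole against untreated, 8, 13 and 3 for the STW5 mean, 2 and 0.5 ml/kg against untreated, 2 for 2 against 0.5 ml/kg and 13 for omeprazole against STW5. That weighting stopped before it converged, so its gene-by-gene method was added after these counts were seen, and gave 1, 1, 0, 0, 0, 2 and 5. Spike-in scaling gave 17 for 2 ml/kg against untreated and 26 between doses, normexp 6 and no filter 11 of 53 between doses. Leaving out untreated arrays 1 and 2 together (chosen after seeing the data) gave 10, 2 and 12 for untreated against sham, omeprazole and 2 ml/kg against untreated. Leaving out single arrays gave 0 to 4 for untreated against sham, 0 to 1 for omeprazole against untreated, 0 to 8 for 2 ml/kg against untreated and 0 to 1 between doses, with the highest counts without untreated array 1 or array 3 of the 2 ml/kg group. The other 3 comparisons kept 0 without any single array. Without untreated array 1, 12%, 7.64% and 20.2% of all genes passed for untreated against sham, omeprazole and 2 ml/kg against untreated. For the other settings of this paragraph the share of all genes is not set beside the counts. Those counts therefore do not show that members passed more often than other genes. The causes were not tested.

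The median member change minus that of all genes, 0.13, 0.15, -0.07, -0.30, -0.01, -0.39 and 0.22 in the 7 comparisons, stayed within the spread between replicates except with the dose labels exchanged or the authors' deposited table. It was then -0.30 (both) for 0.5 ml/kg, -0.014 (both) for 2 ml/kg and 0.39 (both) between doses. Over single arrays left out it ranged from 0.08 to 0.32, -0.01 to 0.31, -0.22 to 0.05, -0.45 to -0.11, -0.05 to 0.11, -0.50 to -0.29 and 0.14 to 0.32. With the replicate block no count changed (0 in each comparison). For 2 ml/kg against untreated, where same-numbered arrays correlated, the block on those 8 arrays alone (added after seeing the data) also gave 0 members, with a median of -0.30 relative to all genes.

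Reversed gene values, with the dose labels exchanged and with the authors' table, were Atp6ap2 1.18 and 1.33, Atp6v1b2 0.92 and 1.07 (between doses) and Atp6v1c1 -0.15 and -0.24 (0.5 ml/kg against untreated). Atp6v0a2 for 2 ml/kg was -0.087 with spike-in scaling. For omeprazole against untreated, Atp4a was -0.040 and -0.010 with the default and gene-by-gene weights, -0.077 without omeprazole array 1 and -0.011 without untreated array 2 (at most 0.45 without any 1 array). Tfeb was -0.28 and -0.11 with these weights, -0.54 without untreated arrays 1 and 2, -0.06 without array 1 and -0.18 without array 2 (at most 0.32), and Mcoln1 was -0.16 without both, -0.13 without array 1 and -0.0060 without omeprazole array 2 (at most 0.16). For untreated against sham Tfeb was -0.052 and -0.023 without untreated array 3 or 4 (at most 0.45). Gene values were followed for a set narrowed after reversals were seen. The wider set of 44 had 47 reversed, 82 newly past the threshold and 837 unchanged calls.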
